A study of Mus musculus with 5 samples.

Results

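Among the sites that p300 and c-Jun shared in TGF-β1-treated MS5 cells, 1092 still carried a c-Jun peak when pioglitazone was added but no longer carried a p300 peak. They are 2.44% of the 44718 sites formed by merging all peaks of the 4 deposited ChIP-seq peak lists that overlap by at least 1 bp. A site was counted when it held a peak in 3 lists, c-Jun with pioglitazone, c-Jun without it and p300 without it, and none in the list of p300 with pioglitazone. The sites were chosen by the presence and absence of listed peaks in these 4 libraries, so that pattern is a description and not a result. Below, a factor is called kept at a site when it was listed in both treatments, and lost when it was listed only without pioglitazone.

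MS5 is an established mouse bone marrow stromal line, used here at passage 11. Every culture was exposed to 10 ng/mL TGF-β1 for 5 h. The 4 libraries were p300 with pioglitazone at 20 ng/mL, p300 without pioglitazone, c-Jun with pioglitazone at 20 ng/mL and c-Jun without pioglitazone, each a single library, and a pooled input had no file used here. No group lacked TGF-β1, so effects of TGF-β1 itself are outside these data, and with 1 library per group no difference has a replicate check and no p-value is given. The files hold no expression values, and the stromal identity of the line was not checked.

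c-Jun is a subunit of AP-1, a dimeric transcription factor that binds short DNA motifs and is activated in stromal cells by growth factors, cytokines and stress. p300 is a histone acetyltransferase that does not read DNA sequence itself but is recruited by transcription factors such as AP-1 and SMAD proteins, and its presence marks active enhancers and promoters. Pioglitazone is a ligand of the nuclear receptor PPARγ, which drives adipocyte genes. Ligand-bound PPARγ is also known to restrain AP-1-dependent transcription in several cell types, and nuclear receptors and AP-1 use some of the same coactivators. A site that keeps c-Jun and loses p300 is one where the DNA-binding factor and the coactivator parted in the peak lists.

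With pioglitazone 21994 p300 peaks were listed, against 31466 without it. For c-Jun the numbers were 13325 with pioglitazone, against 17044 without it. Sequencing depth is unknown. A shorter list alone removes peaks, so a lost peak means that none was listed and not that binding was absent. The lists give no peak heights, and the row of a peak in its list, as a percent of the list length, is used as its place (a low percent is near the start). The sources used here do not say what the rows were sorted by. Between treatments the order was related: Spearman's rho for p300 rows was 0.86 across the 5762 sites present in all 4 lists, where both factors were kept. These sites share libraries and are not independent replicates.

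Loss of p300 with c-Jun kept was the least common outcome at shared sites. Of the 11958 sites that held both factors without pioglitazone, c-Jun was kept and p300 lost at 1092, which is 9.13% (95% interval 8.62 to 9.66, exact Clopper-Pearson, for counting error only). Both were lost at 1888 (15.8%), p300 alone was kept at 3216 (26.9%), and both were kept at 5762 (48.2%). For background, 48.5% of the 31465 sites with p300 without pioglitazone had no p300 with it, and 46.3% of the 17044 sites with c-Jun without pioglitazone kept it. The 1092 sites are thus drawn from 6854 shared sites that kept c-Jun, and 15.9% (15.1 to 16.8) of these lost p300. With lists cut to equal lengths between treatments there were 725 such sites. In the first 50% of rows of the 3 lists there were 308, or 8.65% of the 3561 shared sites that kept c-Jun in those rows. The corresponding share was 37.0% (35.7 to 38.3) among the 5104 shared sites that lost c-Jun. It was 38.8% (36.7 to 41.0) among the 2021 p300 sites with c-Jun with pioglitazone only. Among the 17486 p300 sites that were in neither c-Jun list it was 65.7% (65.0 to 66.4).

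The p300 peaks that were lost beside a kept c-Jun peak stood in the middle of the p300 list. Their median place was 49.3% of the list without pioglitazone (95% interval of the median 47.6 to 51.4), with the lowest at 3.04% and the highest at 99.8%. At sites that kept both factors the median was 16.2% (15.6 to 16.9), at sites that kept p300 only it was 29.2% (28.1 to 30.2), and at sites that lost both it was 61.7% (59.98 to 63.0). Only 24 of the 1092 sites (2.20%) were in the first 10% of the p300 list, against 2053 of 5762 (35.6%) of the sites that kept both. The first of the 1092 stood at row 956. The list with pioglitazone has 21994 rows, and 825 of the 1092 lost peaks (75.5%) stood within that many rows of the list without it. By definition 21994 of all 31466 rows of that list do, and at sites that kept both 5531 of 5762 peaks (96.0%) did.

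**Figure D1:**
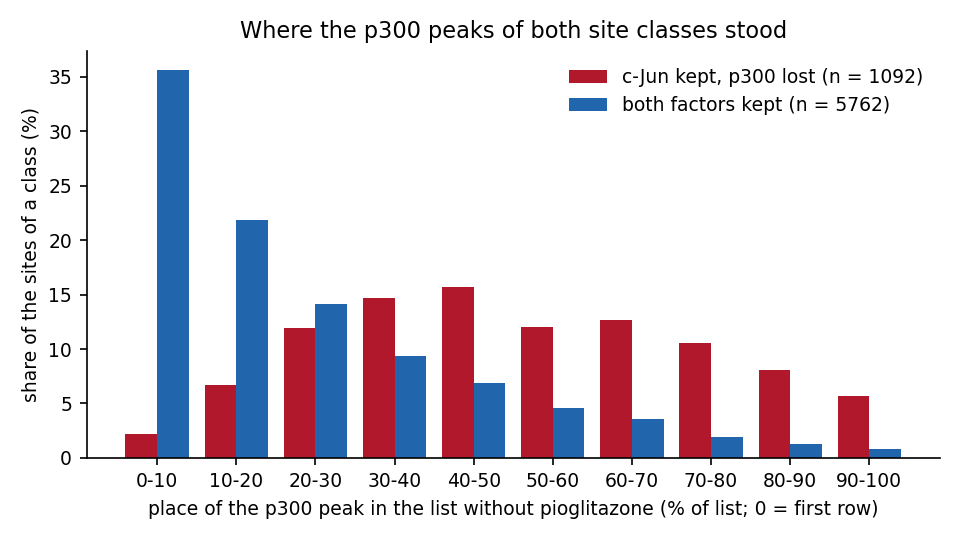
Share of the sites of each class (y axis, %) by the place of their p300 peak in the list without pioglitazone (x axis, steps of 10% of the list). The 1092 sites that kept c-Jun and lost p300 (red) peak at 40 to 50% of the list, where 171 of them stood, and the 5762 sites that kept both factors (blue) peak in the first 10%, with 2053.

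At any given place in the p300 list, p300 was lost less often where c-Jun was kept than where it was lost or in neither list. Sites with c-Jun with pioglitazone only were not split by place. In the first 10% of the list p300 was lost at 24 of 2077 sites that kept c-Jun (1.16%, 0.742 to 1.71), at 17 of 502 that lost c-Jun (3.39%, 1.98 to 5.37) and at 56 of 418 in neither c-Jun list (13.4%, 10.3 to 17.0). In the last 10% the shares were 55.9% (46.1 to 65.3) of 111, 74.0% (68.3 to 79.2) of 262 and 89.3% (88.1 to 90.5) of 2671 sites. The order of the 3 kinds was the same in each of the 10 steps. Weighted over the steps, the lost share at sites that kept c-Jun minus that at sites that lost it was -8.83 points (-10.3 to -7.32). Against sites in neither c-Jun list the difference was -23.8 points (-25.3 to -22.4). The intervals of neighbouring steps do not account for sites that lie in one region. These contrasts use the list presences that define the classes and are a description. A p300 peak with pioglitazone counted as kept if it overlapped any peak of the site, so c-Jun peaks widened the target. Sites that kept c-Jun and lost p300 had a median width of 315 bp, against 296.5 bp at sites that lost both. Site width was not adjusted for, and no width is given for sites in neither c-Jun list.

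**Figure D2:**
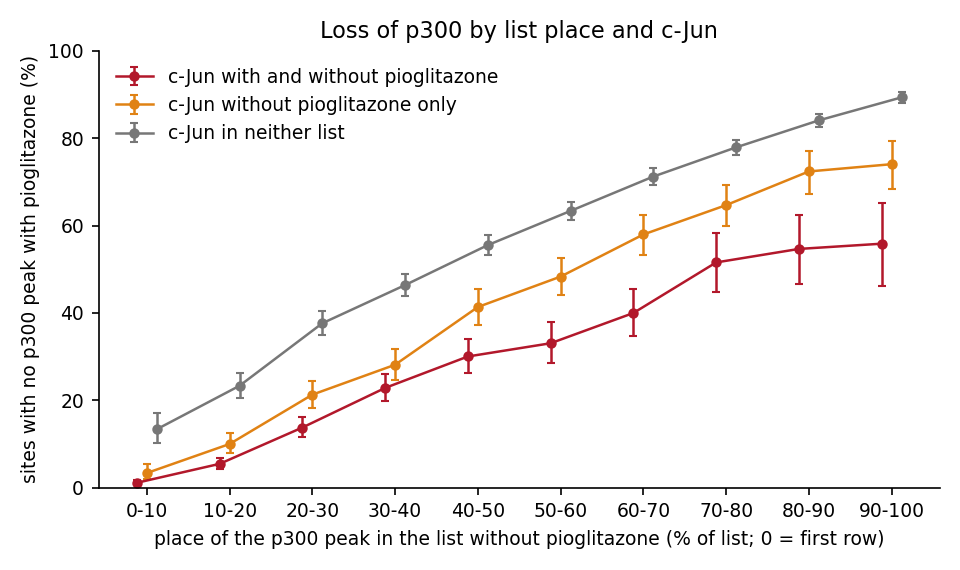
Share of sites with no p300 peak with pioglitazone (y axis, %) by place in the p300 list without it (x axis, steps of 10%), with exact 95% intervals for counting error, for sites with c-Jun in both treatments (red), without pioglitazone only (orange) and in neither c-Jun list (grey). The red points go from 1.16% in the first step to 55.9% in the last and lie below the other 2 lines in each step.

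The c-Jun peaks of these sites moved both up and down their list. Their median place was 50.9% of the list with pioglitazone (interval 47.5 to 54.2), against 45.9% of the list without it (43.8 to 48.6). At sites that kept both factors the medians were 33.3% (32.2 to 34.4) with pioglitazone and 27.1% (26.1 to 28.0) without it. Site by site, the c-Jun place with minus without pioglitazone had a median of 1.91 points (0.647 to 3.17), with the middle 50% of sites between -10.6 and 17.2 points. It was lower in the list by more than 10 points at 390 sites (35.7%) and higher by more than 10 points at 280 (25.6%). Spearman's rho between the c-Jun rows of both treatments was 0.66 over these 1092 sites and 0.72 over the 5762 that kept both.

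Whether c-Jun counts as lower with pioglitazone depended on the scale. As a percent of each list it was lower at 614 sites (56.2%, 53.2 to 59.2), and by row number, in lists of unequal length, it was at a later row at 387 (35.4%, 32.6 to 38.4). At sites that kept both factors the shares were 62.1% and 45.6%. A c-Jun peak beyond row 13325 without pioglitazone could only move to an earlier row. Without such peaks, c-Jun was at a later row at 42.4% (39.2 to 45.7) of 913 sites that lost p300. At sites that kept both it was at a later row at 49.2% (47.9 to 50.6) of 5342. Weighted over steps of the p300 list, the share with a lower c-Jun percent differed by -1.06 points (-4.60 to 2.47) between the sites that lost p300 and those that kept it. Weighted over steps of the c-Jun list without pioglitazone, the difference had the opposite sign, 2.999 points (-0.0763 to 6.07). Both intervals include 0.

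**Figure D3:**
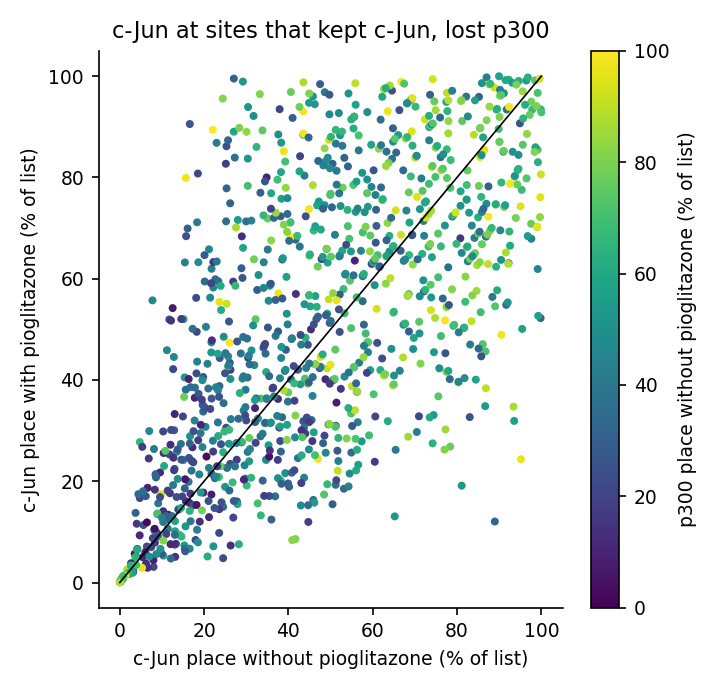
Place of the c-Jun peak with pioglitazone (y axis, % of list) against its place without it (x axis, % of list) at the 1092 sites that kept c-Jun and lost p300, coloured by the place of the lost p300 peak; the line marks equal places. Points lie on both sides of the line, with 390 more than 10 points above it and 280 more than 10 points below it, and points near the origin lie close to it.

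Without weighting by p300 place, the share of sites that lost p300 differed with the place of c-Jun. Among all sites with c-Jun in both treatments that also had p300 without pioglitazone, p300 was lost at 23.2% (13.9 to 34.9) of the 69 sites whose c-Jun peak with pioglitazone was among the first 1%. It was lost at 8.50% (5.96 to 11.7) of 400 sites between 1% and 5%, at 7.27% (5.25 to 9.77) of 550 between 5% and 10%, and at 26.1% (23.5 to 29.0) of 1006 in the last 25%. This unweighted share was lowest just below the top of the c-Jun list and higher at both ends. Sites with no p300 in either treatment were also most frequent in the first 1%. Of its 133 sites, 16 (12.03%) had p300 without pioglitazone only, 53 (39.8%) in both treatments, 21 (15.8%) with pioglitazone only and 43 (32.3%) in neither.

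In that first 1%, neither the lost nor the kept p300 peaks stood near the top of their list. The median p300 place was 56.8% (36.8 to 74.4) at the 16 sites that lost p300 and 48.9% (41.9 to 56.3) at the 53 sites that kept it. Between 5% and 10% of the c-Jun list the medians were 31.5% at 40 sites that lost p300 and 5.18% at 510 that kept it. In the first 1% the intervals of both medians overlapped. For comparison, all sites that kept c-Jun lost p300 at 30.1% between 40% and 50% of the p300 list. Between 50% and 60% of that list they lost it at 33.1%.

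**Figure D4:**
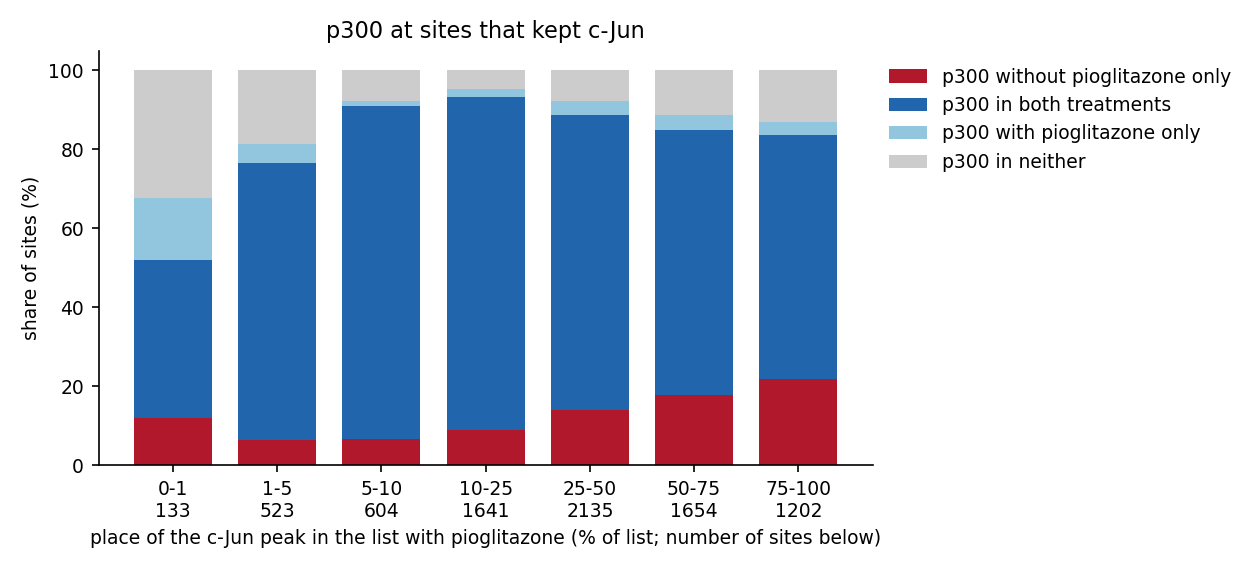
Share of sites that kept c-Jun (y axis, %) with p300 without pioglitazone only (red), in both treatments (blue), with pioglitazone only (light blue) or in neither (grey), by the place of c-Jun in the list with pioglitazone (x axis, % of list, with the number of sites). Red makes up 12.03% of the first 1%, 6.50% of the next step and 21.9% of the last, and grey makes up 32.3% of the first 1%.

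The difference by c-Jun place over the whole range was small once p300 place was taken into account. Sites with c-Jun in the lower 50% of the list without pioglitazone lost p300 at 25.6% of 1904 and those in the upper 50% at 12.2% of 4950. Within steps of the p300 list the weighted difference was -1.002 points (-3.12 to 1.12). It was -0.891 (-3.29 to 1.51) when peaks had to overlap by 50%, and -0.767 (-3.00 to 1.47) without merging. It was -2.34 (-4.36 to -0.323) at equal list lengths and 0.168 (-1.90 to 2.24) when p300 within 500 bp counted as kept. It was -3.50 (-5.37 to -1.63) in the first 30% of the p300 list, -1.96 (-6.27 to 2.35) between 30% and 60%, and 7.83 (0.960 to 14.7) in the last 40%, a division made after the values by step had been seen. Within steps, loss was thus somewhat more frequent where c-Jun stood high among the first-listed p300 peaks, and where it stood low among the last-listed. Without weighting, the first 30% showed 5.09% lost of 688 with low c-Jun and 5.24% of 3661 with high c-Jun. In the last 40% these shares were 51.4% of 516 and 42.6% of 324.

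The sites named first are those whose c-Jun peak stood near the top of its list. The 10 sites first in the c-Jun list with pioglitazone held rows 3 to 71 with pioglitazone and rows 4 to 72 without it, so c-Jun barely moved. The p300 peaks lost there stood between 30.7% and 89.4% of their list. At chr9:106183458-106183718 c-Jun was at row 3 with pioglitazone and row 4 without it, p300 was at row 28141 without pioglitazone, and the nearest p300 peak with pioglitazone was 74.8 kb away. At chr10:80755810-80756060 c-Jun was at rows 5 and 8, with and without pioglitazone, and p300 at row 9648 without it. At chr17:85189892-85190158 c-Jun was at rows 14 and 16 in the same order and p300 at row 13349 without it. The p300 and c-Jun centres were 3 to 56 bp apart in the 10 sites.

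Further sites of this group kept c-Jun just as closely. The c-Jun rows with and without pioglitazone were 30 and 28 at chr10:41238958-41239219, 42 and 35 at chr1:10027980-10028265, and 60 and 44 at chr17:24306369-24306635. They were 62 and 59 at chr12:60320510-60320764, 69 and 72 at chr2:53050841-53051128, and 71 and 64 at chr12:66174714-66175035. The p300 peaks without pioglitazone at these 6 sites stood at rows 10907, 12830, 15940, 23569, 13417 and 24857, in the same order. Of the 10 sites, 1 had a p300 peak with pioglitazone within 1 kb. That site is chr12:60320510-60320764, with a p300 peak 593 bp away at row 21018 of 21994.

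The 10 sites first in the p300 list looked different, since each had p300 with pioglitazone close by. Their p300 peaks without pioglitazone were at rows 956 to 2258, and the nearest p300 peak with pioglitazone had its centre 319 to 4878 bp away, at rows 50 to 3786 of its own list. The first is chr2:151739793-151740164, with p300 at row 956 without pioglitazone and c-Jun at rows 1581 with and 1098 without it. A p300 peak with pioglitazone at row 50 lay 2031 bp away. At chr3:116779615-116779905 p300 was at row 1138 without pioglitazone, c-Jun at row 3314 with and 3506 without it, and p300 with pioglitazone was at row 55, 3178 bp away. At chr10:80221467-80221729 p300 was at row 1288 without pioglitazone, c-Jun at row 757 with and 607 without it, and the nearest p300 peak with pioglitazone was 4878 bp away.

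At 4 of these 10 sites the neighbour with pioglitazone was less than 500 bp away and at a place with no p300 peak without it. These are chr8:58757016-58757317 (479 bp, row 823), chr2:173179399-173179697 (354 bp, row 895), chr9:95088809-95089121 (319 bp, row 1428) and chr17:56405384-56405696 (426 bp, row 3786). Their c-Jun rows with and without pioglitazone were 1413 and 1412, 3312 and 6040, 7220 and 2138, and 1783 and 1963, in that order. The remaining 3 are chr15:101076766-101077049, chr6:94189745-94190013 and chr8:90804850-90805145, with a p300 peak with pioglitazone 1703, 1598 and 1723 bp away at a site that also held p300 without it. Listed as a loss by position, these sites lay in neighbourhoods where p300 was still listed.

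The same pattern held over all sites high in the p300 list. Of the 24 sites in its first 10% that kept c-Jun and lost p300, 19 (79.2%, 57.8 to 92.9) had another p300 peak with pioglitazone within 5 kb, against 537 of 2053 (26.2%, 24.3 to 28.1) that kept both. Without pioglitazone, another p300 peak was within 5 kb at 15 of the 24 (62.5%, 40.6 to 81.2) and at 607 of the 2053 (29.6%, 27.6 to 31.6). Between 10% and 20% of the list the shares with pioglitazone were 68.5% (56.6 to 78.9) of 73 and 21.9% (19.6 to 24.3) of 1257. In the last 20% they were 10.0% (5.71 to 16.0) of 150 and 13.1% (7.69 to 20.4) of 122. Weighted over steps, the difference between sites that lost p300 and sites that kept both was 17.1 points (14.2 to 20.0) for neighbours with pioglitazone and 14.0 points (10.9 to 17.0) for neighbours without it. In the first 50% of rows of the 3 lists the difference with pioglitazone was 29.8 points (24.2 to 35.4), and when p300 within 500 bp counted as kept it was 11.8 (9.04 to 14.6). The counts with pioglitazone draw on the list that chose the sites and are a description: at a site that kept p300 the peak inside the site is not counted, whereas at a site that lost it a peak just outside is. In both treatments, sites that lost an early-listed p300 peak thus had another within 5 kb more often than sites that kept both. Within 1 kb without pioglitazone, the shares in the first 10% were 8.33% of 24 and 6.09% of 2053. Sites that lost both factors were not split by step. Over all places, 23.3% of them had another p300 peak within 5 kb with pioglitazone and 24.6% without it. At the 1092 sites these shares were 27.2% and 28.2%.

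**Figure D5:**
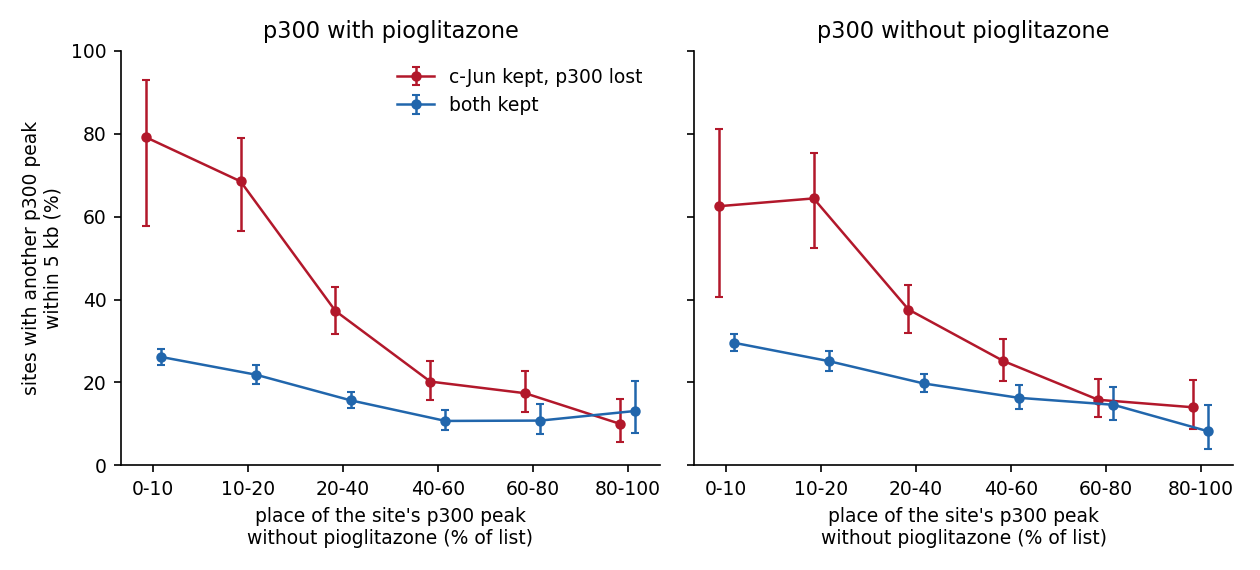
Share of sites with another p300 peak within 5 kb (y axis, %, exact 95% intervals for counting error) with pioglitazone (left) and without it (right), by the place of the site's own p300 peak without pioglitazone (x axis, % of list), for sites that kept c-Jun and lost p300 (red) and sites that kept both (blue). In the first 10% the red point is at 79.2% and the blue at 26.2% with pioglitazone; in the last 20% the intervals overlap.

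Over all 1092 sites, most had no p300 peak with pioglitazone nearby. The nearest one was at a median of 16.1 kb (13.9 to 18.0), the closest at 240 bp and the farthest at 3266.6 kb. It was within 500 bp at 66 sites (6.04%), within 1 kb at 135 (12.4%), and within 5 kb at 297 (27.2%), and 97 sites (8.88%) had none within 100 kb. The share within 1 kb was 23.1% when peaks had to overlap by 50% to count as one site. It was 3.33% when p300 within 500 bp of the edges of the site counted as kept. Of the 135 neighbours within 1 kb, 94 (69.6%, 61.1 to 77.2) were at places with no p300 peak without pioglitazone, and of the 66 within 500 bp, 64 were. Among all p300 peaks with pioglitazone 26.3% were at such places. Peaks of 1 list rarely lie within 500 bp of each other, which bears on this share: 1 of the 1092 sites had a second p300 peak without pioglitazone outside the site at that distance. At sites that lost both factors, 4.71% had a p300 peak with pioglitazone at up to 500 bp and 9.22% at up to 1 kb. Sites that kept both had another such peak less often, not counting the peak inside the site. Their shares were 0.312% within 500 bp, 5.07% within 1 kb and 19.9% within 5 kb.

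Over a wider stretch, the other p300 peaks near these sites were lost at a rate that did not differ detectably from those near sites that kept both factors, once list place was taken into account. In a 25 kb window centred on the site there were on average 0.624 other p300 peaks with pioglitazone and 0.783 without it per site, a ratio of 0.796. Around sites that kept both there were 0.661 and 0.876, a ratio of 0.754. Of the p300 peaks without pioglitazone in the window of such a site only, 320 of 688 (46.5%, 42.7 to 50.3) were lost, and of those near sites that kept both only, 1812 of 4457 (40.7%, 39.2 to 42.1). Within steps of the p300 list the difference was -1.38 points (-4.76 to 1.99). Other p300 peaks were present in the window at 44.1% of these sites with pioglitazone and 50.7% without it, and at 48.0% and 57.8% of sites that kept both. Within steps of the p300 list the sign turned, to 11.3 points (7.93 to 14.6) with pioglitazone and 7.22 points (3.81 to 10.6) without it. For c-Jun the averages in the window were 0.307 peaks with pioglitazone and 0.411 without it, and 0.389 and 0.505 around sites that kept both.

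Among the first 50% of the p300 list, the site farthest from any p300 peak with pioglitazone was chr17:93779402-93779698. It lay 1369.5 kb from the nearest one, and c-Jun was at row 6418 with pioglitazone and 5148 without it. The next were chr5:51581963-51582258 at 1025.8 kb, chr3:25704519-25704856 at 660.6 kb, chr6:18299479-18299797 at 426.2 kb and chr9:117480376-117480655 at 417.3 kb. Their p300 peaks without pioglitazone stood at 21.7% to 45.7% of the list, so none was among the first-listed. Each lay in a long stretch with no p300 peak with pioglitazone.

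Most of the sites were the only one of their class in their stretch of the genome. Peaks of any list were joined where their centres lay no farther apart than that window reaches to either side of a site. This gave 25240 domains, of which 1075 held such a site, 1058 with 1 and 17 with 2. Another site of the class was in the 25 kb window of 22 sites (2.01%) and within 100 kb of 159 (14.6%). The class makes up 2.44% of all merged sites, and the spacing within other classes was not computed for comparison. In 570 of the 1075 domains (53.0%) no p300 peak was listed with pioglitazone at all, and these held 576 of the sites. The share was 53.04% (50.7 to 55.3) of the 1827 domains with a site that lost both factors and 35.6% (34.9 to 36.3) of all 20374 domains with p300 without pioglitazone. The domains were chosen for holding a lost p300 peak. Among domains with 2 sites, that at chr10:77542688-77554986 had 0 p300 peaks with pioglitazone and 2 without it, and 2 c-Jun peaks in each treatment. That at chr10:97958958-97981303 had 0 and 2 p300 peaks and 3 c-Jun peaks in each treatment. The p300 peaks of these domains are those of the sites themselves, so their absence with pioglitazone follows from the choice of sites.

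Other domains with 2 sites kept p300 elsewhere. The domain at chr11:117774024-117877386 held 12 p300 peaks with pioglitazone and 13 without it, and 7 and 8 c-Jun peaks. That at chr12:80589923-80616007 held 2 p300 peaks with pioglitazone and 6 without it, and 2 and 4 c-Jun peaks. At chr1:140225841-140245366 p300 had 1 peak with pioglitazone, against 4 without it, and c-Jun 4 with it, against 5 without it. The net fall in listed p300 peaks was thus 1, 4 and 3 in these domains.

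The share of sites that lost p300 varied by chromosome. Among sites that kept c-Jun it was lowest on chromosome 1, with 67 of 559 (11.99%, 9.41 to 15.0), and highest on chromosome 9, with 72 of 352 (20.5%, 16.4 to 25.1). On the X it was 20 of 106 (18.9%, 11.9 to 27.6), and no site of either class was on the Y. Within steps of the p300 list, chromosome 1 differed from the others by -2.04 points (-4.60 to 0.522) and chromosome 9 by 2.32 (-1.39 to 6.02). The X differed by -5.44 (-11.9 to 1.01), opposite in direction to its unweighted share. The intervals excluded 0 on chromosome 4, at -4.64 (-8.54 to -0.743), and chromosome 13, at -3.22 (-6.18 to -0.264), among 20 chromosomes compared without adjustment.

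The peaks of both factors lay close together at these sites, which follows from joining overlapping peaks into sites. The same holds for the c-Jun peaks of both treatments, so only differences between classes are informative here. Without pioglitazone the p300 and c-Jun centres were a median of 43 bp apart (40 to 46), against 36 bp (35 to 37) where both factors were kept. They were within 50 bp at 620 sites (56.8%, 53.8 to 59.7) and at 3680 (63.9%, 62.6 to 65.1). Within steps of the p300 list the difference turned to 3.49 points more often at the sites that lost p300 (-0.0170 to 6.996). The centre of the kept c-Jun peak shifted between treatments by a median of 46 bp (42 to 48), against 43 bp (41 to 44) where both were kept.

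The threshold of the rule is an overlap of 1 bp, and some sites stood close to it. Just inside, chr4:19655448-19655723 and chr9:98463856-98464343 had a p300 peak with pioglitazone with its centre 240 bp from that of the lost one, and chr4:97670883-97671249 had one 249 bp away. Just outside, chr3:121279990-121280542 counted as keeping p300 through an overlap of 2 bp, and chr14:67593091-67593767 and chr9:72833010-72833540 through 6 bp. Sites were not assigned to genes or motifs and no sequence is given, because mm9 sequence and annotation were not used.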

How the data were processed

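ChIP-seq peak lists of 4 libraries from MS5 cells were analysed. The reads were processed against mouse build mm9 with HOMER, SAMtools 1.9 and Bowtie2 2.3.4.3, per the submitters' processing notes. The sources used here do not give the settings, the treatment of duplicates or the use of the input, each of which could move the number of peaks. The authors deposited 1 list per library with a score of 1 for every peak, so no height or depth is known. Peaks have 1 width per list, from 227 to 249 bp. Positions are mm9, counted from 1.

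Sites are peaks of all lists linked by overlaps of at least 1 bp, built in Python (version 3.11.15; numpy 2.4.6, pandas 2.3.3, scipy 1.17.1). bedtools (version 2.31.1) gave the same 44718 sites and 1092 members. Where a site held several peaks of a list, the first-listed one was used. Shares carry exact (Clopper-Pearson) 95% intervals, medians order-statistic intervals, and differences within 10% steps of the p300 list Mantel-Haenszel weighted intervals. All cover counting error only and are not tests. The functions were tested on simulated lists of isolated peaks, with c-Jun place unrelated to p300 place, unlike in these data. Distances run between peak centres, except in the alternative where p300 within 500 bp counts as kept. There the distance runs from the edges of the site to the p300 centre. Named are the 10 sites first in the p300 list without pioglitazone and the 10 first in the c-Jun list with it, of which the site on chromosome 18 is given only within ranges. Also named are the 5 farthest from p300 with pioglitazone in the first 50% of the p300 list, 3 sites on each side of the rule and the 5 domains with most sites (ties by position). The sites, rules and comparisons were chosen with earlier results of these data known. Planned gene and motif comparisons were not run.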

Additional observations from a re-analysis of the deposited data

Results flagged for a closer look

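At 6 of the 25 sites named for their place in a list or their distance from p300, the antibodies moved in opposite directions: p300 was no longer listed with pioglitazone, and c-Jun stood nearer the start of its list. Over all 1092 sites the same held at 478 (43.8%), so it was no more frequent among the named ones. By row number c-Jun stood earlier at 14 of the 25 and at 705 of the 1092 (64.6%). A c-Jun peak beyond row 13325 without pioglitazone could only stand earlier by this measure. The difference was not tested, since each group is 1 library, and the loss of p300 was the condition for choosing the sites. The c-Jun place with minus without pioglitazone was -12.7 points of the list at chr5:51581963-51582258, -10.6 at chr2:173179399-173179697, -2.89 at chr8:90804850-90805145 and -1.05 at chr15:101076766-101077049. It was -0.0094 at chr10:80755810-80756060 and -0.0010 at chr9:106183458-106183718, where c-Jun was among the first 10 rows of both lists and moved by 3 rows and 1 row.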

How the results depend on the processing

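With 5 alternatives for each of the 6 planned results, 13 values stayed within 1.5 times the count or within the interval of the value reported, and 16 moved. No paired analysis was possible because each group is 1 library. The number of sites was 725 at equal list lengths and 308 in the first 50% of rows of the 3 lists. The share that lost p300 among shared sites that kept c-Jun was 17.6% with an overlap of 50% of both peaks, 14.4% when p300 within 500 bp counted as present, 12.3% at equal lengths, 8.65% in the first 50% of rows and 16.9% without merging. The median p300 place was 46.1%, 56.7% and 29.7% with 50% overlap, equal lengths and the first 50% of rows. The share with p300 with pioglitazone within 1 kb was 23.1%, 3.33%, 14.6%, 17.5% and 18.1% under the 5 alternatives in the order of the lost shares. The share with c-Jun lower in its list was 43.2% at equal lengths, where percent and row number are the same scale. The difference by c-Jun place could not be computed in the first 50% of rows, which hold no lower part. At equal lengths it was -2.34 points (-4.36 to -0.323).

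For p300 neighbours with pioglitazone within 5 kb, a comparison and 5 alternatives added after the data were seen, 1 value stayed within the interval and 4 moved. The difference was 11.8 points when p300 within 500 bp counted as present, 21.2 at equal lengths, 29.8 in the first 50% of rows and 21.8 without merging. Depth is unknown, so whether a peak not listed fell below detection cannot be told.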
